A study of Homo sapiens with 9 samples.

Results

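MATR3 knockout clone 5 and MATR3 knockout clone 1 of the human cell line HAP1 were compared for every gene and every repeat subfamily. The comparison rested on 4 of the 9 RNA-seq libraries of the study, chosen by their labels as MATR3 knockout (KO) clone 5 (2 libraries) and MATR3 KO clone 1 (2 libraries). HAP1 is an adherent, near-haploid line derived from KBM-7, a chronic myeloid leukaemia line. Both KO clones were purchased as finished clones, and 5 libraries of wild type (WT) HAP1 cells stood beside them. The WT cells were bought as different batches of a single catalogue line and labelled WT #7 (2 libraries) and WT #1 (3 libraries). They are named WT clone 7 and WT clone 1 here, though their labels do not call them clones. Each KO clone is a single clone, neither the guide nor the position of the edit is given in the sources used here, and nothing in the labels says that a clone's libraries were separate cultures. The p-values therefore measure the spread between libraries, which may be technical.

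MATR3 encodes matrin 3, a nuclear protein with zinc fingers and RNA recognition motifs that binds pyrimidine-rich RNA, much of it in introns and in sequences derived from LINE elements, and that takes part in splicing. Mutations of the gene are known in amyotrophic lateral sclerosis. A clonal line descends from a single edited cell and carries whatever that cell carried, so clones that share a deleted gene can differ at other genes.

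Counts summed to 21041809 and 18510420 in KO clone 5 and to 17205057 and 34407309 in KO clone 1, and to between 16103754 and 34204131 in the WT libraries. Of 21003 genes and 1111 repeat subfamilies in the table, 18869 genes and 1078 repeats passed the filter on low counts and were tested in a single edgeR quasi-likelihood fit of all 9 libraries, with p-values adjusted by Benjamini-Hochberg over genes and repeats together. A gene was called at an adjusted p below 0.05. Levels are counts per 1e6 (CPM) of the scaled library, and differences are log2 of KO clone 5 over KO clone 1. Log2 CPM values of the tested features correlated at 0.988 within KO clone 5, at 0.992 within KO clone 1 and at 0.987 to 0.990 between them. In WT clone 1 replicate 1 repeats took 14.03% of counts, the highest share of the 9 libraries, and since all libraries share the estimate of the spread, counts of calls are also given without it.

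The targeted gene was lower in both KO clones to a like degree. MATR3 had 49.1 and 43.1 CPM in KO clone 5, 40.8 and 44.5 CPM in KO clone 1, and 212 to 224 CPM in the 5 WT libraries. The libraries of the KO clones overlapped, and all of them lay below all WT libraries. The log2 difference was 0.11 ± 0.09 between the KO clones (SE, edgeR adjusted p = 0.761), and -2.25 ± 0.08 for KO clone 5 over WT, beside -2.36 ± 0.08 for KO clone 1 over WT. A second MATR3 entry of the table, which starts further upstream and shares exons with the first, differed by 0.06 ± 0.08 between the clones (edgeR adjusted p = 0.895). SNHG4, a non-coding host gene of small nucleolar RNAs whose span lies inside the second MATR3 entry, had 68.0 and 64.8 CPM in KO clone 5, 61.2 and 58.9 CPM in KO clone 1 and 59.6 to 81.0 CPM in WT, with a log2 difference of 0.15 ± 0.12 (edgeR adjusted p = 0.783). Counts over the whole gene show lower MATR3 RNA in both clones and do not show which part of the gene was edited.

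Between the KO clones, 125 of 18869 genes were called (0.662%), 83 of them higher in KO clone 5 (0.44%) and 42 lower (0.223%). Of these, 51 of the higher and 22 of the lower genes were at least 2-fold apart. The median over all genes tested was -0.01, which the TMM scaling sets near 0. All 125 had clone libraries that did not overlap, as had 40.6% of all genes tested. At an unadjusted p below 0.05 there were 1637 genes (8.68%). Without WT clone 1 replicate 1 the count was 416 genes (2.23%), among them all 125, and with KO clone 5 replicate 1 or replicate 2, or KO clone 1 replicate 1 or replicate 2, left out it was 41, 30, 25 and 18 genes.

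**Figure D1:**
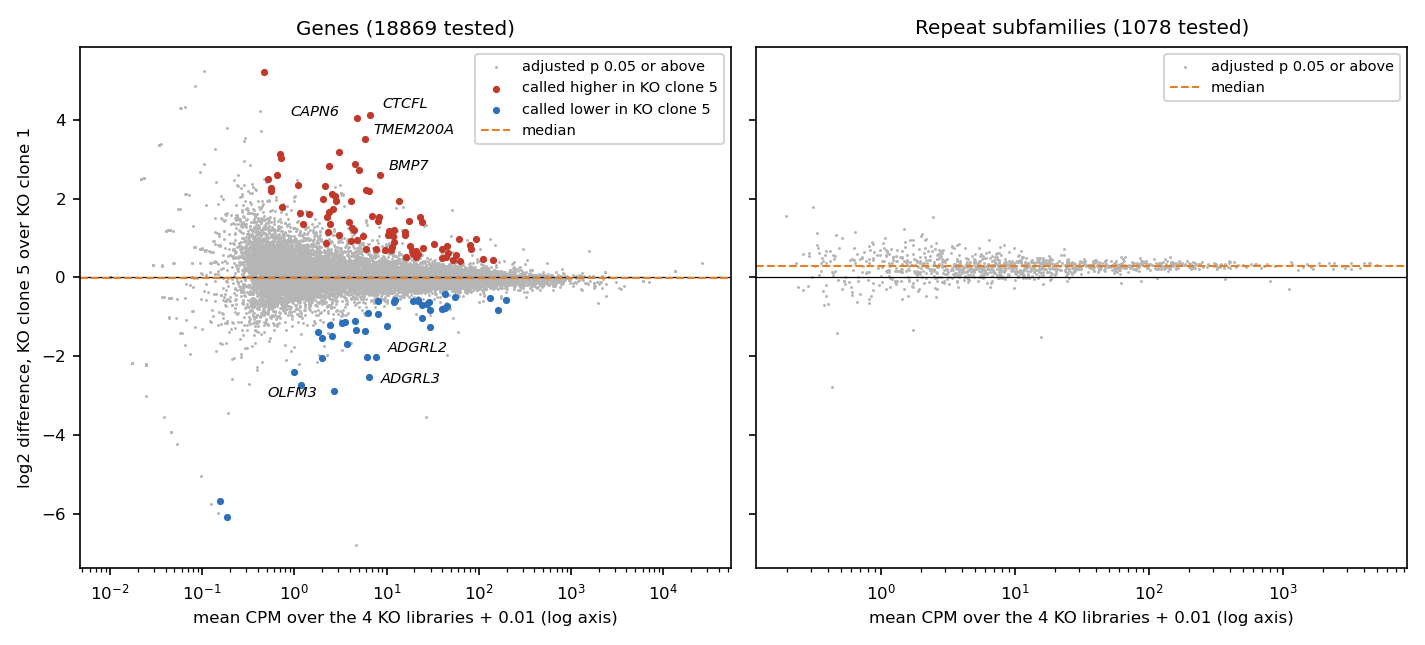
Log2 difference of KO clone 5 over KO clone 1 against mean CPM over the 4 KO libraries (log axis), for 18869 genes on the left and 1078 repeat subfamilies on the right. Red points are the 83 genes called higher and blue points the 42 called lower in KO clone 5, the dashed line is the median, at -0.01 for genes and 0.29 for repeats, and no repeat is called.

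For scale, the same fit called 133 genes between WT clone 7 and WT clone 1 (0.705%), 35 higher and 98 lower in WT clone 7. Between the KO clones 6 of these genes were called too. The WT groups are batches of a single line and not edited clones. Each KO clone against WT gave far more, 3543 genes for KO clone 5 (18.8%) and 3628 genes for KO clone 1 (19.2%). Those 2 comparisons share the WT libraries.

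Among called genes with a mean of at least 1 CPM in KO clone 5, those highest above KO clone 1 included a germline factor, enzymes, membrane proteins and a secreted ligand. ST8SIA4, described below, lay under that level and had a larger difference (5.22 ± 0.88). CTCFL, the testis paralogue of the chromatin factor CTCF, had 12.8 and 12.3 CPM in KO clone 5, 0.465 and 0.866 CPM in KO clone 1, and 0 to 0.177 CPM in WT. Its log2 difference was 4.13 ± 0.42 (edgeR adjusted p = 0.00143). CTCFL was thus well above every other library in KO clone 5, and low but called above WT in KO clone 1 too (log2 3.33 ± 0.62, edgeR adjusted p = 0.00409). CAPN6, a calpain relative that lacks the catalytic cysteine, had 9.46 and 8.77 CPM in KO clone 5, 0.349 and 0.664 CPM in KO clone 1 and 0.123 to 0.797 CPM in WT, a log2 difference of 4.06 ± 0.45 (edgeR adjusted p = 0.00275). KO clone 1 and WT overlapped for CAPN6 and KO clone 5 stood alone. TMEM200A, which encodes a transmembrane protein, had 10.9 and 10.6 CPM in KO clone 5, 0.929 and 0.924 CPM in KO clone 1 and 2.38 to 7.02 CPM in WT, a log2 difference of 3.53 ± 0.37 (edgeR adjusted p = 0.00198). WT lay between the clones for TMEM200A.

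Other genes had their low level in KO clone 1. BMP7, a secreted ligand of the bone morphogenetic protein family, had 14.8 and 14.5 CPM in KO clone 5, 2.03 and 2.66 CPM in KO clone 1 and 9.67 to 13.6 CPM in WT. The log2 difference was 2.61 ± 0.17 (edgeR adjusted p = 0.00024), and KO clone 5 did not pass the test against WT (0.34 ± 0.12, adjusted p = 0.0848) while KO clone 1 did (-2.26 ± 0.16, adjusted p = 5.32e-06). TRHDE, an ectoenzyme that degrades thyrotropin-releasing hormone, was also low in KO clone 1 alone, with 5.91 and 4.85 CPM in KO clone 5, 0.929 and 0.375 CPM in KO clone 1 and 3.92 to 6.59 CPM in WT. FRMD4A, a scaffold protein of cell polarity, had 1.28 and 1.20 CPM in KO clone 5, 0.174 and 0.116 CPM in KO clone 1 and 2.34 to 6.54 CPM in WT, lower than WT in both clones. OSMR, a receptor subunit for oncostatin M, likewise had 3.26 and 3.92 CPM in KO clone 5, 0.639 and 0.751 CPM in KO clone 1 and 12.1 to 25.7 CPM in WT. ST8SIA4, an enzyme that builds polysialic acid, had 21 and 15 counts in KO clone 5 and 0 and 1 in KO clone 1, a ratio of 47.2 with a 95% counting interval of 7.95 to 1917 that covers counting error only.

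**Figure D2:**
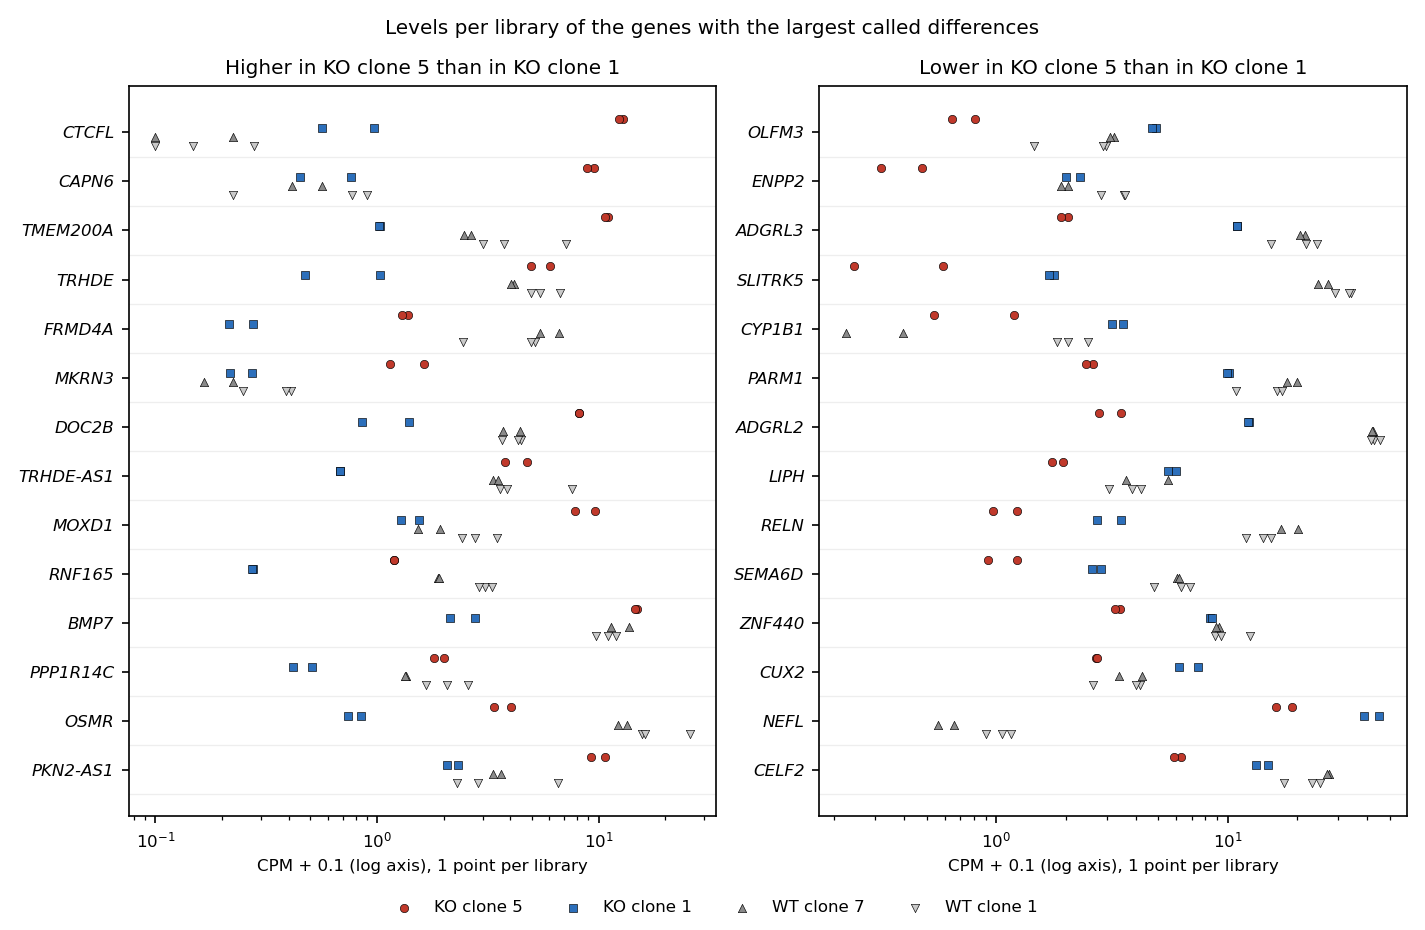
CPM + 0.1 in each library (log axis) for the 14 genes with the largest called difference in each direction and a mean of at least 1 CPM in the higher clone. KO clone 5 points (red circles) lie right of KO clone 1 points (blue squares) in the left panel and left of them in the right panel, while the WT libraries (grey triangles) lie on either side, as for CTCFL (0 to 0.177 CPM) and SLITRK5 (24.5 to 33.8 CPM).

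The rest of these 14 genes differed by 2.22 (PKN2-AS1, an antisense RNA) to 3.02 (MKRN3, a paternally expressed imprinted gene). MKRN3 had 1.04 and 1.53 CPM in KO clone 5, 0.116 and 0.173 CPM in KO clone 1 and 0.066 to 0.308 CPM in WT. DOC2B, a calcium sensor of exocytosis, had 8.04 and 8.06 CPM in KO clone 5, 0.755 and 1.30 CPM in KO clone 1 and 3.57 to 4.36 CPM in WT. Between them lay MOXD1 at 2.74, RNF165 at 2.61, PPP1R14C, an inhibitor of protein phosphatase 1, at 2.34, and TRHDE-AS1, which overlaps TRHDE on the opposite strand, at 2.83. The libraries are directional, but the strand setting of the counting is not given in the sources used here. Reads of TRHDE and TRHDE-AS1 therefore cannot be told apart. Of the 125 called genes, 24 overlap a measured gene on the opposite strand, and the share over all genes tested is not given here.

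Among the genes lower in KO clone 5, ADGRL2 and ADGRL3 encode adhesion receptors of the latrophilin family. ADGRL2 had 3.36 and 2.67 CPM in KO clone 5, 12.3 and 12.2 CPM in KO clone 1 and 41.4 to 45.5 CPM in WT. Its log2 difference of -2.01 ± 0.12 had the smallest adjusted p of the comparison (edgeR, 0.00018). ADGRL3 had 1.94 and 1.80 CPM in KO clone 5, 10.9 and 10.9 CPM in KO clone 1 and 15.2 to 24.3 CPM in WT, a log2 difference of -2.54 ± 0.23 (edgeR adjusted p = 0.00124). For both receptors the order was KO clone 5 below KO clone 1 below WT, with no overlap between the 3 sets of libraries.

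OLFM3, a secreted olfactomedin protein, had 0.709 and 0.545 CPM in KO clone 5, 4.82 and 4.62 CPM in KO clone 1 and 1.36 to 3.14 CPM in WT, a log2 difference of -2.89 ± 0.35 (edgeR adjusted p = 0.00536). ENPP2 and LIPH, which encode secreted or membrane enzymes that make lysophosphatidic acid, fell by 2.73 and 1.69 on the log2 scale. SLITRK5, a neuronal transmembrane protein, had 0.142 and 0.490 CPM in KO clone 5, 1.68 and 1.59 CPM in KO clone 1 and 24.5 to 33.8 CPM in WT. Both clones lay far below WT for SLITRK5, KO clone 5 furthest. RELN, a secreted matrix glycoprotein that guides neurons, fell by 1.54, and PARM1, a mucin-like membrane protein, by 2.03, in the same order of groups. Chosen after their counts were seen, ERBB4, a receptor tyrosine kinase, and PPP2R2B, a regulatory subunit of protein phosphatase 2A, had 0 counts in both KO clone 5 libraries against 5 and 14 counts (ERBB4) and 6 and 8 counts (PPP2R2B) in KO clone 1, at least 4.83-fold and 3.56-fold lower when 3 counts over both libraries are taken as the limit.

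NEFL, the neurofilament light chain, moved against the common order. It had 15.98 and 18.79 CPM in KO clone 5, 38.7 and 44.9 CPM in KO clone 1 and 0.462 to 1.06 CPM in WT, so it was lower in KO clone 5 by 1.27 ± 0.13 (edgeR adjusted p = 0.00142) but far above WT in both clones. CUX2, a homeobox transcription factor, had 2.60 and 2.61 CPM in KO clone 5, 7.32 and 6.06 CPM in KO clone 1 and 2.53 to 4.17 CPM in WT. CYP1B1, a cytochrome P450, had 1.09 and 0.436 CPM in KO clone 5, 3.43 and 3.06 CPM in KO clone 1 and 0.124 to 2.40 CPM in WT. For CUX2 and CYP1B1 the clone that passed the test against WT was KO clone 1. The WT groups themselves differed for CYP1B1, with 0.297 and 0.124 CPM in WT clone 7 and 1.72 to 2.40 CPM in WT clone 1 (log2 -3.08 ± 0.44, edgeR adjusted p = 0.0306). KO clone 5 lay between them.

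The start regions of 4 of these genes are printed as examples. They were picked to give a lower and a higher CG count in each direction, beside a median of 14 over all promoters. How common such starts are among the called genes was not tested. The sequences are from RefSeq (GRCh38.p14), each runs 5′ to 3′ on the gene's strand from 250 bases before to 50 bases after the annotated start, and capitals mark each CG dinucleotide, the motif counted. CAPN6 (chrX:111270434-111270733, minus strand) holds 5 CG, and 70.4% of the 35116 promoters in the table hold at least as many, while TMEM200A (chr6:130365767-130366066, plus strand) holds 25, reached by 32% of promoters. OLFM3 (chr1:101846939-101847238, minus strand), where the RefSeq start lies inside the longer GENCODE entry of the gene (chr1:101802560-101996926), holds 9, reached by 58.4%, and PARM1 (chr4:74932866-74933165, plus strand) holds 28, reached by 26.2%. The higher genes CAPN6 and TMEM200A come first and the lower genes OLFM3 and PARM1 after them.
CAPN6: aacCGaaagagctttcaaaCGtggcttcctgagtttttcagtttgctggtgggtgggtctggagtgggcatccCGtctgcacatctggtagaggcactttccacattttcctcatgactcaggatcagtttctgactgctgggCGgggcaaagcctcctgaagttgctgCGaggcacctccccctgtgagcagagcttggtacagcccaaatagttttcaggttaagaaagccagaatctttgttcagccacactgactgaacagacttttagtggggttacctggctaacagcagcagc
TMEM200A: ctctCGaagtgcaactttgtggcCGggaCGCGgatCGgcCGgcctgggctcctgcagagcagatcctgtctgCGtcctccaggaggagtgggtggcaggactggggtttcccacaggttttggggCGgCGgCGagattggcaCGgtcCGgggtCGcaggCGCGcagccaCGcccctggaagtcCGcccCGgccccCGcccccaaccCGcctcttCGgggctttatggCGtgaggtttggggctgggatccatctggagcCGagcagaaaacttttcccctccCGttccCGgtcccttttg
OLFM3: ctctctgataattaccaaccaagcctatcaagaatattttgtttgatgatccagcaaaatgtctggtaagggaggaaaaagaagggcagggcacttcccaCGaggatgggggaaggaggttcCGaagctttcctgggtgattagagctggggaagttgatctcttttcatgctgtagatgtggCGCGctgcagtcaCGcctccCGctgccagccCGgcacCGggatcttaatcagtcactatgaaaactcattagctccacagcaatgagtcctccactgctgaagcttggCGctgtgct
PARM1: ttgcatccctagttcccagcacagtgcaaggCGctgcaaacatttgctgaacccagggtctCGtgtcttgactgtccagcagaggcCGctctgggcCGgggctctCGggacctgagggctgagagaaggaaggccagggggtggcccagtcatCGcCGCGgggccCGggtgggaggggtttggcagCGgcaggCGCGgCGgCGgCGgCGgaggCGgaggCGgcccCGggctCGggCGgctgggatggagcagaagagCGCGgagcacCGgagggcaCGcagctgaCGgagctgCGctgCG

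WT did not stand uniformly on the side of either clone. Of the 83 genes higher in KO clone 5, the WT level was nearer to KO clone 5 for 51 and nearer to KO clone 1 for 32, and WT lay between the clones for 36, above both for 29 and below both for 18. Of the 42 lower genes, WT was nearer to KO clone 5 for 11 and nearer to KO clone 1 for 31, and lay between the clones for 10, above both for 26 and below both for 6. Of the higher genes 61 were also called in KO clone 5 against WT and 64 in KO clone 1 against WT, and of the lower genes 35 and 34. Over all genes tested the shares were 18.8% for KO clone 5 and 19.2% for KO clone 1. The genes were chosen by a comparison of the same KO libraries, so these counts are not independent of that choice. FAT3, a giant cadherin, shows a gene high in both clones, with 34.2 and 33.6 CPM in KO clone 5, 11.2 and 12.4 CPM in KO clone 1 and 0.0958 to 0.528 CPM in WT. PCDH9, a protocadherin, shows a gene low in both, with 16.2 and 15.8 CPM in KO clone 5, 7.67 and 7.77 CPM in KO clone 1 and 42.2 to 55.3 CPM in WT.

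Genes of axon guidance held 7 called members of 61 tested (11.5%), 4 higher and 3 lower, against 0.662% of all genes. The list median was 0.01, near that of all genes, since members moved both ways. The list had 5 higher and 6 lower without WT clone 1 replicate 1, and without any 1 of the 4 KO libraries 1 higher and 0 lower. SLIT2, a secreted repellent, had 41.4 and 42.6 CPM in KO clone 5, 23.7 and 23.3 CPM in KO clone 1 and 33.8 to 38.7 CPM in WT, a log2 difference of 0.84 ± 0.08 (edgeR adjusted p = 0.00138). SLIT3, a second SLIT ligand, rose by 1.43 ± 0.22, and the receptors ROBO1, which binds SLIT proteins, and NRP1, a neuropilin, rose by 0.46 ± 0.08 and 0.44 ± 0.08. The members that fell were the ligands EFNB2 (-1.21 ± 0.19) and SEMA6D (-1.39 ± 0.26) and the receptor EPHA4 (-0.49 ± 0.09). Both SLIT ligands called and a receptor for them were thus higher in KO clone 5, and an ephrin and an Eph receptor lower. SLIT3 had 10.9 and 12.5 CPM in KO clone 5 and 4.41 and 4.25 CPM in KO clone 1. The WT groups themselves differed for SLIT3, with 1.49 and 2.49 CPM in WT clone 7 and 4.88 to 6.90 CPM in WT clone 1 (log2 -1.55 ± 0.24, edgeR adjusted p = 0.0317).

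Cadherins and protocadherins, which hold cells together, had 2 members higher and 1 lower of 57 tested (5.26%, against 0.662% of all genes), with a median of 0.15. Besides FAT3 (1.52 ± 0.20) and PCDH9 (1.05 ± 0.09), the neural cadherin CDH2 had 33.0 and 30.8 CPM in KO clone 5, 53.8 and 55.8 CPM in KO clone 1 and 80.8 to 93.9 CPM in WT, a log2 difference of -0.78 ± 0.07 (edgeR adjusted p = 0.0013). In the list of mesenchymal markers CDH2 and PDGFRA, a receptor for platelet-derived growth factor (-0.81 ± 0.11), were the 2 of 16 called, both lower, with a list median of -0.13. PDGFRA had 28.4 and 29.0 CPM in KO clone 5, 49.2 and 51.4 CPM in KO clone 1 and 56.2 to 73.5 CPM in WT. Extracellular matrix genes had 1 member higher and 2 lower of 56, namely THBS2 (thrombospondin 2, 0.71 ± 0.13), FBN1 (fibrillin 1, -1.03 ± 0.10) and FN1 (fibronectin, -0.74 ± 0.10). FBN1 was lower than WT in KO clone 5 (log2 -1.02 ± 0.09) and did not pass the test against WT in KO clone 1 (0.01 ± 0.08). Without WT clone 1 replicate 1 the counts were 6 higher and 1 lower of 51 cadherins tested, 4 lower of 16 mesenchymal markers, which then took in VIM and ZEB1, and 3 higher and 6 lower of 56 matrix genes. Without any 1 of the 4 KO libraries they were 1 higher and 1 lower for cadherins, 1 lower for mesenchymal markers and 1 lower for matrix genes.

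Neuronal markers had 2 members higher and 1 lower of 26 tested (11.5%, against 0.662% of all genes), with a median of 0.07. MAP2, a dendritic microtubule protein, had 4.40 and 4.47 CPM in KO clone 5, 0.697 and 1.30 CPM in KO clone 1 and 2.74 to 4.56 CPM in WT, NRXN2, a presynaptic neurexin, rose by 0.89 ± 0.12, and NEFL was the member that fell. The called members thus did not move together. Without any 1 of the 4 KO libraries 0 neuronal markers were called higher and at most 1 lower. The cyclins CCND1 and CCND2, which drive entry into the cell cycle, were the 2 of 28 G1/S genes called, both higher. CCND2 had 34.3 and 35.4 CPM in KO clone 5, 12.5 and 13.7 CPM in KO clone 1 and 60.8 to 112 CPM in WT (log2 1.41 ± 0.14, edgeR adjusted p = 0.00139). CCND1 had 13.5 and 16.2 CPM, 6.56 and 6.58 CPM and 3.86 to 7.82 CPM in the same order of groups. The WT groups themselves differed for CCND2 (log2 -0.61 ± 0.11 for WT clone 7 over WT clone 1, edgeR adjusted p = 0.0476). The other 26 members did not pass the test and the list median was -0.02, and 1 member was called without KO clone 5 replicate 2 or either KO clone 1 library. The G2/M list had 0 called of 29 and a median of -0.05.

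Other lists with called members, again beside 0.662% of all genes, were ion channels, with the potassium channels KCNK2 (0.92 ± 0.15) and KCNH5 (1.15 ± 0.11) higher of 97 tested (2.06%), and glycosyltransferases, with ST8SIA4 and the sulfotransferase CHST15 (1.62 ± 0.29) higher of 84 (2.38%). KCNH5 had 22.9 and 21.1 CPM in KO clone 5, 9.82 and 10.0 CPM in KO clone 1 and 2.18 to 2.63 CPM in WT. MYB, a transcription factor of blood progenitors, was the 1 called gene of 16 haematopoietic and leukaemia genes (6.25%), with 57.4 and 57.3 CPM in KO clone 5, 33.3 and 33.2 CPM in KO clone 1 and 16.1 to 18.3 CPM in WT. LEF1, a transcription factor of the WNT pathway, rose by 0.70 ± 0.11 as the 1 called of 37 (2.70%). CTH, an enzyme of cysteine synthesis, fell by 0.83 ± 0.10 as the 1 called of 26 genes of the integrated stress response (3.85%).

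Several lists leaned one way with 1 or 0 members called. Of 25 genes of cholesterol synthesis and uptake 22 were below 0, with a median of -0.26 beside -0.01 for all genes, and 1 was called. This was HMGCS1, an early enzyme of the pathway, with 165 and 151 CPM in KO clone 5, 238 and 235 CPM in KO clone 1 and 144 to 159 CPM in WT (log2 -0.58 ± 0.08, edgeR adjusted p = 0.00839). KO clone 5 was near WT for HMGCS1 and KO clone 1 stood above both. ACAT2, an acetyl-CoA acetyltransferase of the same pathway that the list did not hold, was also called lower (log2 -0.52 ± 0.08, edgeR adjusted p = 0.0145). It had 107 and 113 CPM in KO clone 5, 165 and 150 CPM in KO clone 1 and 81.2 to 87.8 CPM in WT. Without WT clone 1 replicate 1, INSIG1, SQLE and FDFT1 were also called lower, and without KO clone 5 replicate 2 or either KO clone 1 library no member was called.

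The 5 measured APOBEC3 genes, cytidine deaminases that restrict retroelements and viruses, were all below 0 with a median of -1.67, and none passed the edgeR test (adjusted p from 0.223 to 0.919). APOBEC3C averaged 0.302 ± 0.0415 CPM in KO clone 5 and 1.30 ± 0.118 CPM in KO clone 1 (SD, n = 2 each), and had 9.18 to 19.4 CPM in the WT libraries, a log2 difference of -2.10 ± 0.57. The KO libraries of this gene did not overlap between the clones or with WT. APOBEC3C and APOBEC3F were called lower without WT clone 1 replicate 1. The lowest WT value of APOBEC3C, 9.18 CPM, was in that library.

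Genes of antigen presentation by MHC class I had 17 of 19 members above 0 and a median of 0.25, with 0 called. Integrins had 15 of 17 above 0 (median 0.16), and genes of the NF-kB pathway 15 of 16 below 0 (median -0.12), again with 0 called. The 34 interferon-stimulated genes split into 19 above and 15 below 0, with a median of 0.03 and 0 called. With WT clone 1 replicate 1 left out, 2 of 33 were called higher (IFITM1 and IFITM2) and 2 lower (IFIT1 and HERC5). Of 21 genes of the cGAS-STING pathway, which senses cytosolic DNA, ENPP1 was called, a hydrolase that degrades the messenger of the pathway, at 13.95 and 13.45 CPM in KO clone 5, 7.67 and 9.01 CPM in KO clone 1 and 9.27 to 10.5 CPM in WT. Without WT clone 1 replicate 1 the DNA sensor IFI16 was called higher (log2 3.55 ± 0.55, edgeR adjusted p = 0.00836, against 0.488 with all libraries). IFI16 rested on few reads, with 9 and 11 counts in KO clone 5 and 1 and 1 in KO clone 1, and had 0.809 to 15.7 CPM in WT. The 29 factors that silence repeats had 0 called and a median of -0.02. Cytosolic ribosomal protein genes (83, median -0.03), histone genes (63) and HOX genes (38, median 0.01) had 0 called, and the 13 mitochondrially encoded genes had 0 called with a median of -0.21.

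Genes of proteins that work beside matrin 3 did not pass the test in the fit of all libraries. There the 20 relatives of matrin 3 and paraspeckle genes had 0 called, 10 above and 10 below 0. Without WT clone 1 replicate 1 the paraspeckle RNA NEAT1 was called higher in KO clone 5 (log2 0.44 ± 0.08, edgeR adjusted p = 0.0129, against 0.842 with all libraries). PTBP1, a splicing repressor that binds pyrimidine-rich RNA, had 480 and 498 CPM in KO clone 5, 537 and 547 CPM in KO clone 1 and 561 to 685 CPM in WT (log2 -0.15 ± 0.08, edgeR adjusted p = 0.653). The paraspeckle proteins SFPQ and NONO differed by -0.05 ± 0.08 and -0.13 ± 0.09. Of 54 splicing regulators 1 was called, CELF2, an RNA-binding protein of brain and muscle splicing, with 6.19 and 5.77 CPM in KO clone 5, 13.2 and 14.9 CPM in KO clone 1 and 17.4 to 27.2 CPM in WT (-1.23 ± 0.17, edgeR adjusted p = 0.0106). CELF2 was lower than WT in both clones, without overlap. RBM24, an RNA-binding protein that the list did not hold, was also called lower in KO clone 5 (log2 -0.61, edgeR adjusted p = 0.0223). Without WT clone 1 replicate 1 the splicing regulator NOVA1 was called lower (-0.53 ± 0.12, edgeR adjusted p = 0.0494). In that fit NOVA2 was called higher (0.88 ± 0.14, edgeR adjusted p = 0.0111).

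**Figure D3:**
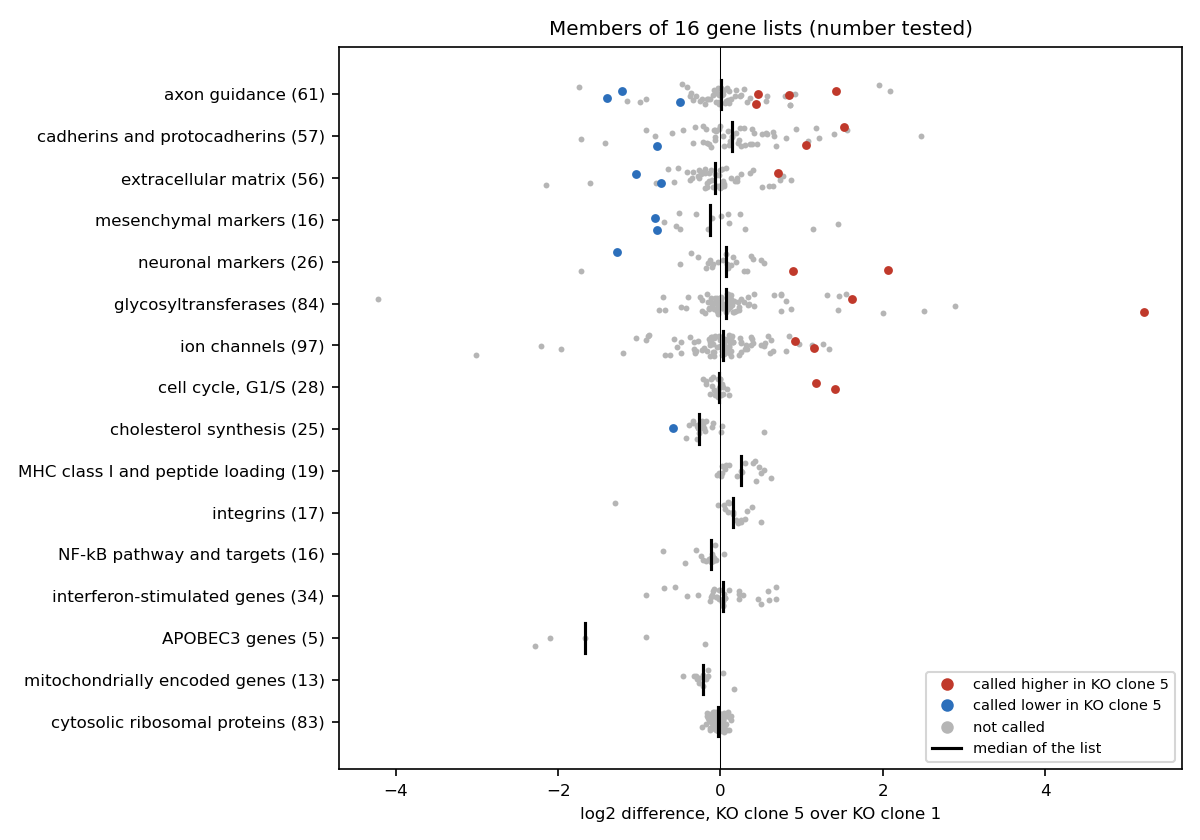
Log2 difference of KO clone 5 over KO clone 1 for every tested member of 16 gene lists, with red for genes called higher, blue for genes called lower, grey for genes not called and a black bar at each list's median. Axon guidance has called members on both sides (4 higher and 3 lower), cholesterol synthesis lies mostly left of 0 (median -0.26) and MHC class I mostly right of it (median 0.25).

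The called genes were long. Their median span in GENCODE 44, from start to end with introns, was 127 kb for the 83 higher genes and 118 kb for the 42 lower genes, beside 22.1 kb for the tested genes found in the annotation. A span of at least 100 kb was found in 49 of the higher (59.0%) and 25 of the lower genes (59.5%), and in 16.1% of all. Their exon length was longer as well, with medians of 8.47 kb and 7.53 kb beside 4.18 kb, and their level was lower, with medians of 6.90 and 7.98 CPM beside 13.0 CPM. The part of length and level in which genes were called was not tested.

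Repeats as a whole took a larger share of counts in KO clone 5, with 11.2% and 10.7% of counts in KO clone 5, 9.0% and 9.0% in KO clone 1, 8.4% and 7.9% in WT clone 7 and 14.03%, 10.25% and 10.48% in WT clone 1. The KO clones did not overlap, and the WT libraries spanned both, though with 2 libraries against 2 an exact permutation test can give no two-sided p below 0.333. Of 1078 repeat subfamilies tested, 973 were above 0 and 105 below, with a median of 0.29. None of the 1078 was called (0%), with a smallest edgeR adjusted p of 0.0603, 192 at an unadjusted p below 0.05 (17.8%), and 2 called by DESeq2. With libraries scaled on repeats alone the median was 0.01, by construction, and 1 repeat was called. Set against WT, repeats had a median of 0.11 for KO clone 5 and -0.18 for KO clone 1, where WT is the mean of WT clones that themselves differed. WT clone 7 against WT clone 1 gave a median of -0.51 and 29 called repeats (2.69%), all lower in WT clone 7.

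The shift ran through the classes. SINE elements, mostly Alu, had 56 of 57 above 0 and a median of 0.35. They took 5.80% and 5.95% of counts in KO clone 5 and 4.85% and 4.60% in KO clone 1. LINE elements had 160 of 163 above 0 (median 0.32), DNA transposons 214 of 226 (median 0.29), the SVA retroposons 6 of 6 (median 0.25) and LTR elements 478 of 551 (median 0.24). Within the LTR class the ERVL-MaLR family had 77 of 78 above 0 (median 0.35) and ERVK 27 of 40 (median 0.12). Satellites were split, 9 above and 7 below (median 0.06). Without WT clone 1 replicate 1, 84 of 1061 repeats were called (7.92%), 82 higher and 2 lower, among them 40 LTR, 21 LINE, 12 SINE and 7 DNA subfamilies higher.

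**Figure D4:**
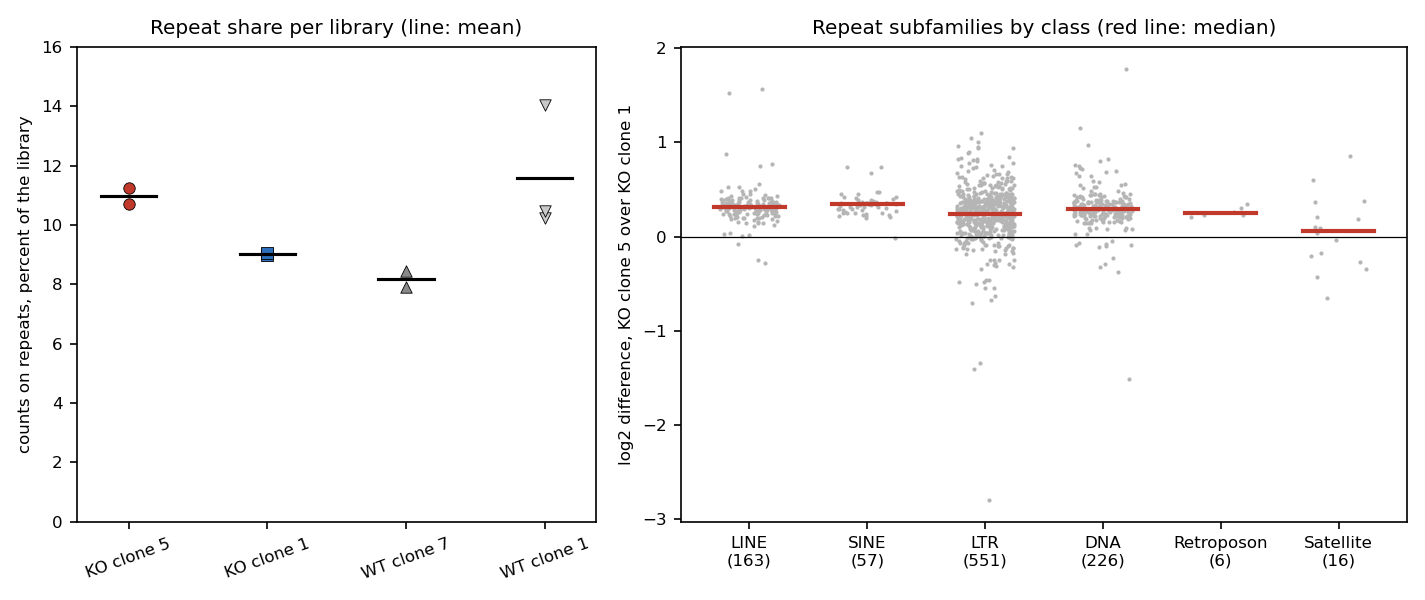
Left, the percent of each library's counts that fell on repeats, with a line at the mean of each group. Right, the log2 difference of KO clone 5 over KO clone 1 for repeat subfamilies of 6 classes, with a red line at the class median. Shares were 11.2% and 10.7% in KO clone 5 and 9.0% and 9.0% in KO clone 1, and the medians of the LINE, SINE, LTR, DNA and SVA classes lie between 0.24 and 0.35.

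Single subfamilies are named here by the smallest p, after their values were seen, and none of them was called in the fit of all libraries. Without WT clone 1 replicate 1, L1P3b (edgeR adjusted p = 0.0169), LTR1D1 (0.00644) and LTR21B (0.0400) were called. L1P3b, a primate L1 subfamily, had 2.74 and 4.47 CPM in KO clone 5, 1.28 and 1.21 CPM in KO clone 1 and 0.462 to 1.11 CPM in WT (log2 1.53 ± 0.30). LTR1D1, an ERV1 long terminal repeat, had 12.2 and 12.5 CPM in KO clone 5, 7.38 and 7.28 CPM in KO clone 1 and 4.92 to 10.5 CPM in WT (0.75 ± 0.16). LTR21B ran the other way, with 0.0946 and 0.109 CPM in KO clone 5, 0.755 and 0.722 CPM in KO clone 1 and 0.311 to 0.693 CPM in WT (-2.80 ± 0.58). HERVK-int, the internal part of the HERV-K provirus and an abundant repeat here, also lay below 0, with 1060 and 937 CPM in KO clone 5, 1170 and 1294 CPM in KO clone 1 and 836 to 1163 CPM in WT (-0.30 ± 0.15, edgeR adjusted p = 0.584).

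Along the genome, chromosomes as a whole were close between the clones. Over 15109 genes with a mean of at least 1 CPM in the KO libraries, chromosome medians lay between -0.05 (chromosome 19) and 0.02 (chromosome 9), apart from -0.18 for the mitochondrial genome, and no run of 3 or more neighbouring genes was called alike. Chromosome 6 held 13 genes called higher and 2 called lower, and 11 of the higher and 1 of the lower genes started beyond 100 Mb on its long arm. There 262 genes had medians of 0.91 in KO clone 5 over WT and 0.84 in KO clone 1 over WT, and of 0.04 between the KO clones. The 531 genes before 100 Mb had medians of 0.02 and 0.04 against WT and of -0.02 between the KO clones. WT clone 7 over WT clone 1 had medians of 0.05 beyond 100 Mb and 0.02 before it. The clones were less alike in parts of the arm, and in the window of neighbouring genes at chr6:124962437-132817564 the medians were 0.75 in KO clone 5 over WT, 0.29 in KO clone 1 over WT and 0.19 between the KO clones. Calls between the KO clones made up 4.58% of genes beyond 100 Mb and 0.565% before it, beside 0.755% of all genes with at least 1 CPM. They include TMEM200A, MOXD1, ENPP1, MYB, PPP1R14C and THBS2.

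**Figure D5:**
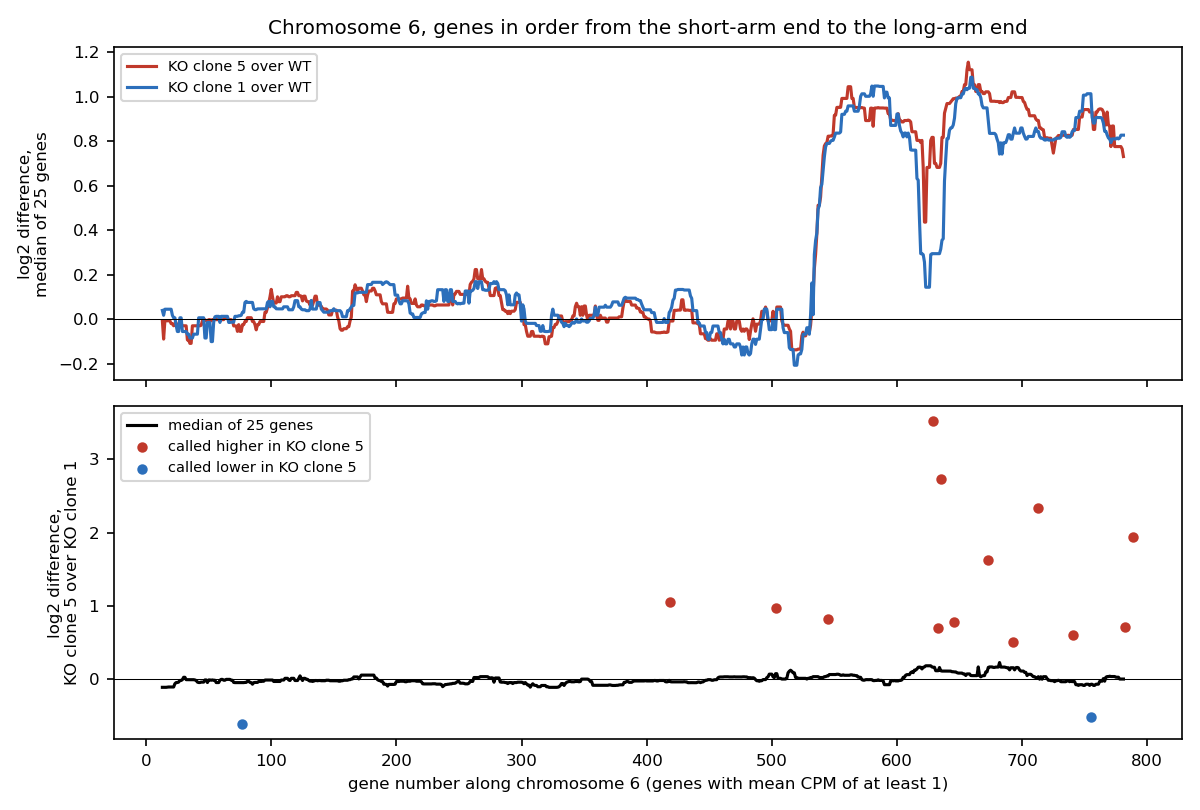
Log2 differences of chromosome 6 genes with at least 1 CPM, by gene number along the chromosome, with the running median of 25 genes for KO clone 5 over WT (red) and KO clone 1 over WT (blue) on top and for KO clone 5 over KO clone 1 (black) below, where points are the 13 genes called higher (red) and 2 called lower (blue). Both upper lines step up at the start of the distal long arm, where the medians are 0.91 and 0.84, and dip once within it, more deeply in KO clone 1, and the lower line reaches 0.23 in the distal part.

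Called genes lay close together in a few places. On chromosome 20, BMP7 and CTCFL start 259 kb apart (hg38, chr20:57168753-57266641 and chr20:57495966-57525652), both higher in KO clone 5, and RAE1 and RBM38 between them differed by 0.01 and 0.03. On chromosome X, PAK3, a kinase downstream of Rac, and CAPN6 start 326 kb apart and were neighbours among tested genes, at 1.44 and 4.06. TRHDE and TRHDE-AS1 overlap on chromosome 12, and ENPP1 and MOXD1 start 593 kb apart on chromosome 6 with CTGF, at 0.40 and not called, between them. The lowest window of 25 neighbouring genes, on chromosome 19 (chr19:11374666-12441021), had a median of -0.28, beside 0.27 in the highest (chr9:136721366-137086817), and holds zinc finger genes, of which ZNF440 was called with 3.31 and 3.16 CPM in KO clone 5, 8.31 and 8.49 CPM in KO clone 1 and 8.71 to 12.3 CPM in WT.

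Markers of other cells were checked in all libraries. The 7 genes fixed for the leukaemic origin of the line were measured, with summed levels of 182 to 191 CPM in KO clone 5, 164 to 171 CPM in KO clone 1 and 146 to 162 CPM in WT. Of 9 haematopoietic markers, 2 were in the table, with sums of 1.18 to 2.02 CPM in KO clone 5, 1.21 to 1.68 CPM in KO clone 1 and 0.739 to 1.44 CPM in WT. Fibroblast markers (3 of 6 in the table) summed to 56.6 to 63.1 CPM in KO clone 5, 80.1 to 82.7 CPM in KO clone 1 and 71.5 to 95.4 CPM in WT. Neuronal markers (4 of 6) summed to 71.7 to 77.4 CPM, 112 to 115 CPM and 64.7 to 88.5 CPM in the same order. Epithelial markers (5 of 6) summed to 114 to 131 CPM in KO clone 5 and 127 to 131 CPM in KO clone 1, above the 38.7 to 67.9 CPM of WT. Of the fibroblast collagens, COL1A1 had 28.1 and 34.1 CPM in KO clone 5 and 33.5 and 28.7 CPM in KO clone 1, and COL3A1 0 to 0.0946 CPM in the KO libraries. Pluripotency markers (3 of 4) summed to 1741 to 1981 CPM in KO clone 5, 1731 to 1754 CPM in KO clone 1 and 1452 to 1981 CPM in WT. These sums are mostly POU5F1 and SOX2, while LIN28A had 0.0946 to 0.581 CPM in the KO libraries and 9.30 to 49.0 CPM in WT. Endothelial and muscle markers were not analysed here. The part of other cells in the differences was not tested, and in bulk RNA fewer cells with a transcript and less transcript per cell cannot be told apart.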

How the data were processed

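Total RNA was depleted of ribosomal RNA and made into directional, paired libraries with UMI adaptors, per the labels' protocols. The submitters' processing notes name hg38, STAR 2.5.2a, DESeq and DESeq2 1.22.2. No counter, strand setting, annotation release or use of the UMIs is given in the sources used here. The deposited values are whole-number raw counts per gene and per repeat subfamily, 1 column for each library, and every column was used. Genes sharing sequence, such as the pair of MATR3 entries, may share reads.

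From these counts edgeR 4.0.16 (limma 3.58.1, R 4.3.3) fitted 4 groups over all 9 libraries, with TMM scaling, filterByExpr at a minimum count of 10 and quasi-likelihood F tests, two-sided, adjusted by Benjamini-Hochberg over genes and repeats together. KO clones were set against the mean of both WT clones. The fit was tested on simulated counts. Alternatives included DESeq2 1.42.0. CPM use TMM-scaled library sizes. Positions and spans are from GENCODE 44 (hg38), which held 20689 of the genes.

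The comparison and its 42 gene lists were chosen with earlier results of these data known. Named were MATR3 and SNHG4, the 14 largest called differences each way with at least 1 CPM in the higher clone and libraries that do not overlap, and up to 3 called members of each list. Other genes were chosen after their values were seen, as were all repeats named. No gene met the on/off rule of at least 1 CPM in one clone and at most 3 counts in the other. Counts of few reads carry counting error that the intervals cover alone.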

Additional observations from a re-analysis of the deposited data

Results flagged for a closer look

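12 of the 125 called genes were above WT in one KO clone and below WT in the other, each passing the edgeR test in all 3 comparisons. The difference between the clones is itself tested in the same fit. Some passed narrowly, with edgeR adjusted p of 0.0490 for MOXD1 and 0.0485 for SEC24D in KO clone 1 over WT. NRP1 in KO clone 5 over WT had 0.0479. MOXD1 had 1.45 and 1.18 CPM in KO clone 1, overlapping the 1.43 to 3.39 CPM of WT. The share of such genes among all genes tested is not given here. Both comparisons against WT share the WT libraries. Of the 9 genes higher in KO clone 5, TMEM200A differed by 3.53 between the clones (1.70 in KO clone 5 over WT and -1.82 in KO clone 1 over WT), DOC2B by 2.89 (1.00 and -1.89), and MOXD1 by 2.74 (2.02 and -0.72). BHLHE22, a transcription factor, differed by 1.997 (0.87 and -1.13), PAK3 by 1.44 (0.88 and -0.56), and CRYM, a thyroid hormone binding protein, by 1.41 (0.65 and -0.76). SLIT2 differed by 0.84 (0.23 and -0.61), SLC44A1, a choline transporter, by 0.61 (0.30 and -0.30), and NRP1 by 0.44 (0.21 and -0.23). OLFM3, lower in KO clone 5, differed by -2.89 (-2.10 in KO clone 5 over WT and 0.80 in KO clone 1 over WT), ARRDC3, an arrestin-domain protein, by -0.70 (-0.39 and 0.32), and SEC24D, a COPII coat protein, by -0.62 (-0.39 and 0.23).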

How the results depend on the processing

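The 125 called genes kept their direction under every alternative that tested them. Leaving out 1 library moved the counts most. Over the 9 libraries left out in turn, the calls ran from 18 to 416 genes, from 15 to 136 genes at least 2-fold apart, and from 0 to 84 repeats, and a clone left with 1 library was assumed to vary like the other groups. The lowest count came without KO clone 1 replicate 2 and the highest without WT clone 1 replicate 1. With the 4 KO libraries alone 329 genes, 131 at least 2-fold apart and 51 repeats were called. The replicate block gave 166 genes, 93 at least 2-fold apart and 3 repeats, and 116 of these genes were among the 125. Deviations of same-numbered libraries from their group means correlated at 0.091 to 0.494 over pairs of groups (0.116 between the KO clones), all positive. Unlike numbers gave -0.494 to 0.191, where values between groups of 2 libraries only mirror those of like numbers and add nothing to them. The labels name no factor shared by a replicate number, so the fit of all libraries took no pairs. The replicate block adjusts for a factor shared by same-numbered libraries, but the factor itself was not tested. DESeq2 called 174 genes (115 shared) and 2 repeats, scaling genes and repeats apart called 136 genes and 1 repeat, robust dispersions 135 genes and 1 repeat, and the strict filter 125 genes and 1 repeat. Of 54 named called genes, 12 were called under every alternative that tested them, namely ADGRL2, ADGRL3, BMP7, CCND2, CDH2, DOC2B, FBN1, KCNH5, MOXD1, PCDH9, SLIT2 and TRHDE. The second MATR3 entry, not called, reversed to -0.0155 without KO clone 5 replicate 1. At 0.5 CPM in place of 1, 5 genes were on in KO clone 5 and off in KO clone 1 and 2 the other way, against 0 each at 1 CPM. Window medians along chromosomes reached -0.60 and 2.10 with 15 genes, where the highest holds near-identical U2 snRNA entries, and -0.16 and 0.19 with 50. The cause of these shifts was not tested, and 2 libraries a clone limit the precision of every value.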

Other observations

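Mitochondrial ribosomal RNA, which the depletion step is meant to remove, differed between libraries of the same clone. It summed to 74.3 and 25.5 CPM in KO clone 5, 285 and 31.1 CPM in KO clone 1, 85.0 and 36.1 CPM in WT clone 7 and 144, 24.9 and 72.5 CPM in WT clone 1. RNY1, a Y RNA, had 43.2 and 2.67 CPM in KO clone 5, 11.5 and 2.89 CPM in KO clone 1, 68.2 and 2.55 CPM in WT clone 7 and 16.5, 2.73 and 6.17 CPM in WT clone 1. In all 4 groups the library labelled replicate 1 had the highest value of both. The sum over snRNA and Y RNA genes was closer between libraries, with 7220 and 7052 CPM in KO clone 5, 7507 and 6835 CPM in KO clone 1, 7023 and 6001 CPM in WT clone 7 and 6064, 6964 and 8233 CPM in WT clone 1.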
